A study of Homo sapiens with 4 samples.

Results

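The endoplasmic reticulum (ER) folds and checks proteins bound for the cell surface, the endolysosomal system and the outside of the cell, and 43 genes of its folding, stress-sensing and disposal machinery were followed here among 48162 genes of a count table. They were chosen by name, with earlier results of these data known, and all 43 were found in the table. By function, 4 were genes of stress sensing, 16 of chaperones and glycan trimming and 8 of disulfide bond formation. The others were 10 of ER-associated degradation (ERAD) and 5 of the translocon. The 4 genes of stress sensing include the factor XBP1 and are called sensors in the counts below. Messenger RNA of cells labelled as MDA-MB-453, a human breast cancer line, was sequenced from 2 libraries labelled TMEM9 KD, with reduced TMEM9, and 2 libraries of wild-type cells (WT). TMEM9 is a transmembrane protein found on lysosomes and endosomes. The sources used here do not give how TMEM9 was reduced, the culture time or any control construct. Nor do the labels state whether replicates were separate cultures, and p-values therefore reflect library-to-library spread that could be technical.

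Proteins enter the ER through the SEC61 translocon, are bound by chaperones such as BiP (HSPA5), receive sugar chains that calnexin and calreticulin read, and are joined by disulfide bonds made by protein disulfide isomerases. Misfolded proteins are carried back to the cytosol and degraded, which is ERAD. When unfolded proteins build up, the sensors IRE1 (ERN1), ATF6 and PERK (EIF2AK3) start the unfolded protein response: ATF6 and the spliced form of XBP1 switch on chaperone and ERAD genes, and PERK slows translation and raises ATF4 and its targets. Counts per gene do not separate spliced from unspliced XBP1 and say nothing on cleavage of ATF6 or phosphorylation of PERK.

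The libraries held 15960941 and 17065126 counts in TMEM9 KD, against 15323843 and 18517337 in WT. TMEM9 itself had 51 and 78 counts in TMEM9 KD, against 1120 and 1497 in WT (log2 fold change -4.37, SE 0.13, edgeR adjusted p = 4.12e-52). Levels are CPM (counts scaled to library size with TMM factors), and log2 fold changes are of TMEM9 KD over WT. Defining markers went partly against the labelled cell line. Of 14 luminal and apocrine markers, 7 (SPDEF, KRT19, TFF3, PIP, AGR2, CDH1 and EPCAM) were under 1 CPM in all 4 libraries. The mesenchymal gene VIM had 1846 and 1745 CPM in TMEM9 KD, against 1343 and 1356 CPM in WT. The series text also calls the profiles retinal, and all 9 photoreceptor markers were under 1 CPM in every library.

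Most of the chosen ER genes were moderately lower in TMEM9 KD, with some lower in each of the 5 functions. Of the 43 genes, 42 passed the filter on low counts, 30 fell and 1 (MOGS) rose at an adjusted p under 0.05, and 11 did not pass the test. Over all 14923 genes tested, 29.0% fell and 28.7% rose, 57.7% in either direction. The median log2 fold change of the 42 was -0.38, a level of 0.769 times that of WT, beside 0.01 over all genes tested. In 35 of the 42 both TMEM9 KD libraries lay below both WT libraries and in 3 above, where these shares over all genes were 38.5% and 39.1%. Together the 43 genes took 1.09% and 1.07% of the counts in TMEM9 KD, against 1.35% and 1.36% in WT. PDIA4, PDIA5, DNAJC3 and ERO1B, 4 of the 42, were lower by at least 2-fold, as were 1548 of the 14923 genes tested, a like share. Tested against a change of 1.5-fold, those 4 and EDEM1 fell, where 11.3% of all genes fell and 7.44% rose. In bulk RNA, fewer cells of one type and less RNA per cell cannot be told apart.

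**Figure D1:**
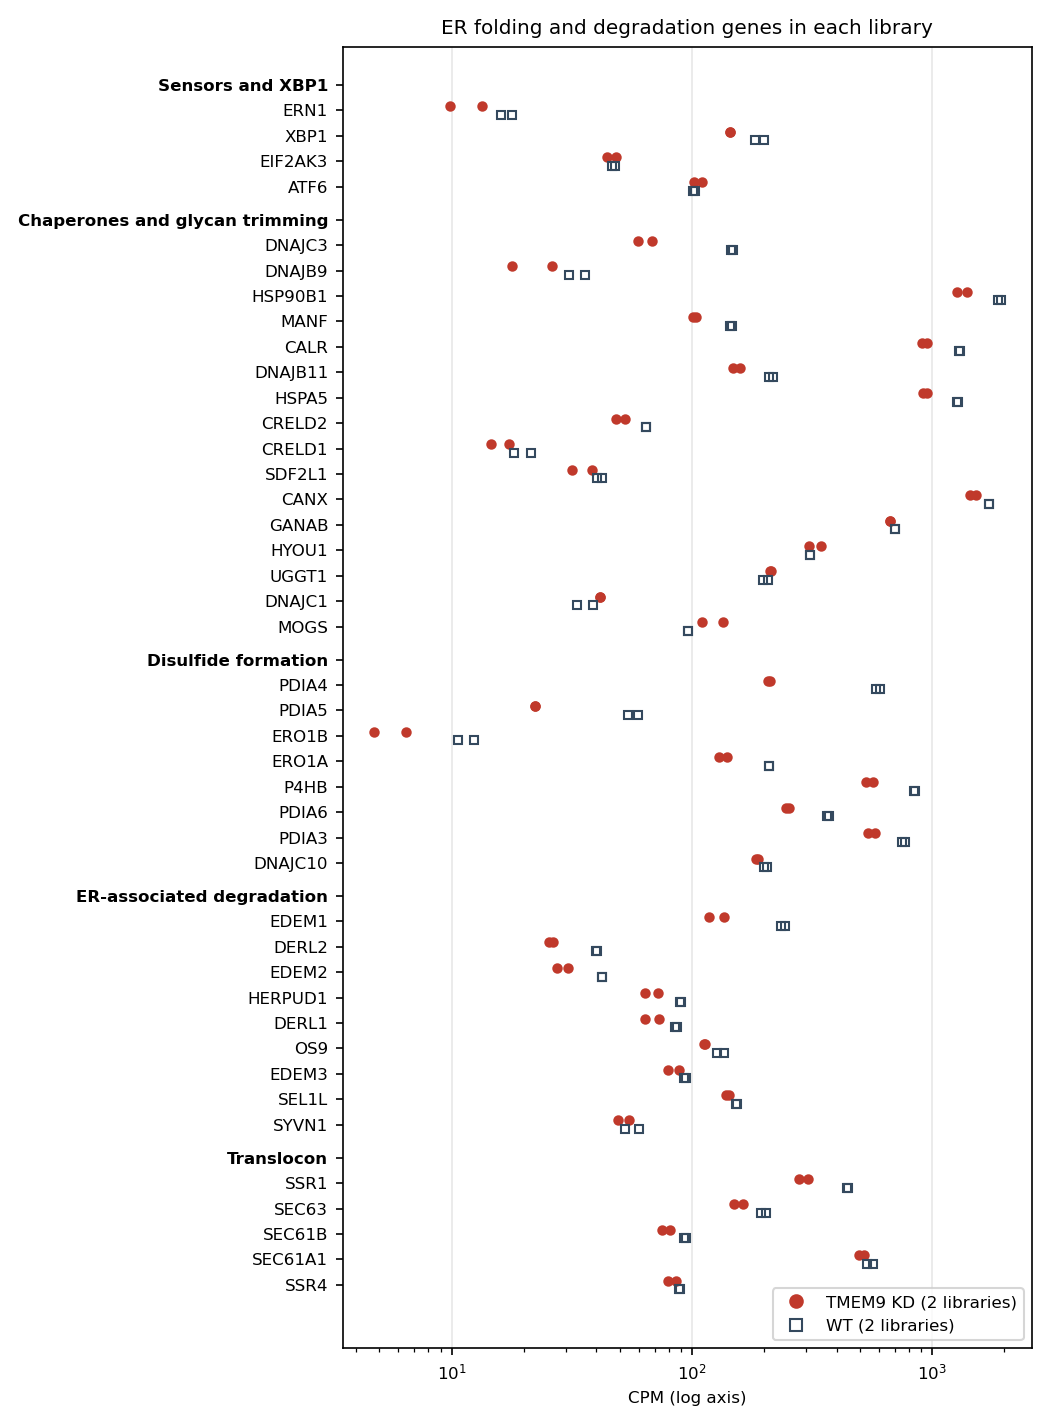
CPM in each library (log axis) for the 42 genes tested, ordered by fold change within each function; filled circles are the 2 TMEM9 KD libraries and open squares the 2 WT libraries. In PDIA4, PDIA5 and DNAJC3 the groups are far apart, while in ATF6, EIF2AK3, HYOU1 and SYVN1 they overlap.

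Among the sensors and XBP1, ERN1 and XBP1 fell, and ATF6 and EIF2AK3 did not pass the test. XBP1, the transcription factor made active by IRE1 splicing, had 144.3 and 144.5 CPM in TMEM9 KD, against 199.2 and 182.8 CPM in WT. Its log2 fold change was -0.40 (SE 0.06, adjusted p = 4.45e-08), with no overlap between the groups. ERN1, which encodes the IRE1 kinase and nuclease, had 9.89 and 13.4 CPM in TMEM9 KD, against 17.9 and 16.02 CPM in WT (log2 fold change -0.53, SE 0.14, adjusted p = 0.000806). Its TMEM9 KD libraries differed from each other, and the call ended without TMEM9 KD replicate 1 (-0.328, adjusted p = 0.0535). ATF6, the membrane-bound factor that is cut in the Golgi, had 110.3 and 101.6 CPM in TMEM9 KD, against 101.3 and 103.5 CPM in WT. Its log2 fold change was 0.05 with SE 0.07. EIF2AK3, the PERK kinase, had 48.5 and 44.3 CPM in TMEM9 KD, against 47.8 and 46.4 CPM in WT (log2 fold change -0.02, SE 0.09, and 0.053 when scaled by library size only). The WT libraries of ATF6 and EIF2AK3 lay between or beside their TMEM9 KD libraries.

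Of the 16 genes of chaperones and glycan trimming, 11 fell, 1 rose and 4 did not pass the test (median log2 fold change -0.34). HSPA5, the BiP chaperone that also holds the sensors inactive, had 949 and 920.3 CPM in TMEM9 KD, against 1269 and 1280.4 CPM in WT. HSPA5 had a log2 fold change of -0.45 (SE 0.05, adjusted p = 3.33e-13). HSP90B1, the ER form of HSP90, had 1402 and 1272 CPM in TMEM9 KD, against 1883 and 1929 CPM in WT (log2 fold change -0.51, SE 0.05, adjusted p = 5.91e-16). HSPA5 thus stood at 0.733 times and HSP90B1 at 0.701 times the WT level, with no overlap between the groups in either gene.

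The cofactors of BiP differed more among themselves. DNAJC3, a J-domain co-chaperone that is also known as an inhibitor of PERK, had 68.5 and 59.9 CPM in TMEM9 KD, against 148.9 and 144.9 CPM in WT. Its log2 fold change of -1.20 (SE 0.07, adjusted p = 7.79e-28) was the lowest of the chaperone genes. DNAJC3 lies on chromosome 13, where 32 of its 40 nearest tested genes also fell, with a median log2 fold change of -0.83. Its own value was lower than that median by 0.364, and all tested genes of chromosome 13 had a median of -0.62. DNAJB9, a J-domain protein that recruits BiP to IRE1, had 26.1 and 17.8 CPM in TMEM9 KD, against 35.8 and 30.7 CPM in WT (log2 fold change -0.60, SE 0.11, adjusted p = 3.89e-06). DNAJB11 fell by 0.48 on the log2 scale. MANF, a secreted ER stress protein that binds BiP, had 101 and 104.2 CPM in TMEM9 KD, against 147.2 and 144.8 CPM in WT (log2 fold change -0.51, SE 0.07, adjusted p = 1.76e-10). HYOU1, a large chaperone that exchanges the nucleotide of BiP, did not pass the test. It had 307.5 and 343.1 CPM in TMEM9 KD, against 311.7 and 311.4 CPM in WT, a log2 fold change of 0.06 (SE 0.06, adjusted p = 0.362). The WT value of HYOU1 lay between its TMEM9 KD libraries, and 1 library decided its direction. HYOU1 was called higher without TMEM9 KD replicate 1 (0.145, adjusted p = 0.00054) and when scaled by library size only (0.137, adjusted p = 0.0349), and had -0.0267 without TMEM9 KD replicate 2.

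The lectin chaperones fell, and of the 3 enzymes that edit the sugar chains they read, 1 rose and 2 did not pass the test. CALR, soluble calreticulin, had 903.5 and 951 CPM in TMEM9 KD, against 1297 and 1303 CPM in WT (log2 fold change -0.49, SE 0.05). CANX, its membrane-bound partner calnexin, had 1516 and 1440.3 CPM in TMEM9 KD, against 1724 CPM in both WT libraries (log2 fold change -0.22, SE 0.05). MOGS, the glucosidase that removes the first glucose of the transferred sugar chain, rose. It had 110.7 and 134.6 CPM in TMEM9 KD, against 96.0 and 96.6 CPM in WT (log2 fold change 0.35, SE 0.07, adjusted p = 1.68e-05). GANAB, the catalytic subunit of the next glucosidase, had a log2 fold change of -0.07 (adjusted p = 0.237), was called lower without TMEM9 KD replicate 1 (0.0496) or 2 (0.0251), and had 0.00255 when scaled by library size only. UGGT1, which puts glucose back on misfolded glycoproteins, had 0.07 (adjusted p = 0.306), and was called higher when scaled by library size only (0.147, adjusted p = 0.0301). Small changes were called for SDF2L1, a partner of J-domain proteins, at -0.23 and for CRELD1, a relative of CRELD2, at -0.32. The call of SDF2L1 ended without WT replicate 1 (adjusted p = 0.232), without WT replicate 2 (0.0834) and without TMEM9 KD replicate 1 (0.44), and also scaled by library size only (0.162), with no filter (0.0603) and with DESeq2 (0.131). That of CRELD1 ended without WT replicate 2 (adjusted p = 0.364), without TMEM9 KD replicate 1 (0.223), scaled by library size only (0.0906) and with DESeq2 (0.125). CRELD2, an ER stress protein, fell by 0.36 on the log2 scale. DNAJC1, a membrane J protein, had 41.4 and 41.3 CPM in TMEM9 KD, against 33.4 and 38.8 CPM in WT (0.19, adjusted p = 0.0722). DNAJC1 was called higher when scaled by library size only (0.267, adjusted p = 0.011).

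The genes of disulfide bond formation had the lowest median among the 5 functions, -0.63, and 7 of the 8 fell. PDIA4, a disulfide isomerase known as ERp72, had 207.3 and 212.4 CPM in TMEM9 KD, against 583.7 and 605 CPM in WT. Its log2 fold change of -1.50 (SE 0.06, adjusted p = 9.88e-43) was the lowest of the 42. PDIA4 lies on chromosome 7, where 26 of its 40 nearest tested genes fell, with a median log2 fold change of -0.73, and its own value was lower than that median by 0.772. PDIA5, another disulfide isomerase, had 22.2 CPM in both TMEM9 KD libraries, against 59.5 and 54.4 CPM in WT (log2 fold change -1.36, SE 0.10, adjusted p = 1.97e-23). The nearest genes of PDIA5 had a median of -0.11. The level of PDIA5 was well separated from WT, with nearly equal values within TMEM9 KD.

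The oxidases that recharge the isomerases fell too. ERO1A, the widely expressed oxidase that is also known to be induced by low oxygen, had 140.3 and 130 CPM in TMEM9 KD, against 208.5 and 209.7 CPM in WT (log2 fold change -0.63, SE 0.06, adjusted p = 3.36e-15). ERO1B, its relative known from the pancreas, was scarce, with 106 and 83 counts in TMEM9 KD, against 159 and 223 counts in WT. That is 6.47 and 4.76 CPM in TMEM9 KD, against 10.6 and 12.4 CPM in WT (log2 fold change -1.05, SE 0.18, adjusted p = 2.65e-07). The abundant isomerases P4HB, PDIA6 and PDIA3 fell by 0.62, 0.56 and 0.44 on the log2 scale. P4HB, which also serves as the beta subunit of collagen prolyl 4-hydroxylase, averaged 548 ± 27.6 CPM in TMEM9 KD and 844 ± 4.50 CPM in WT (SD, n = 2 each). DNAJC10, a reductase that helps ERAD by breaking disulfide bonds, had 187.9 and 184.1 CPM in TMEM9 KD, against 200.4 and 205.7 CPM in WT. Its groups did not overlap, but its log2 fold change of -0.13 did not pass the test (adjusted p = 0.068), and it was called lower without TMEM9 KD replicate 1 (0.00888) or 2 (0.0249).

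**Figure D2:**
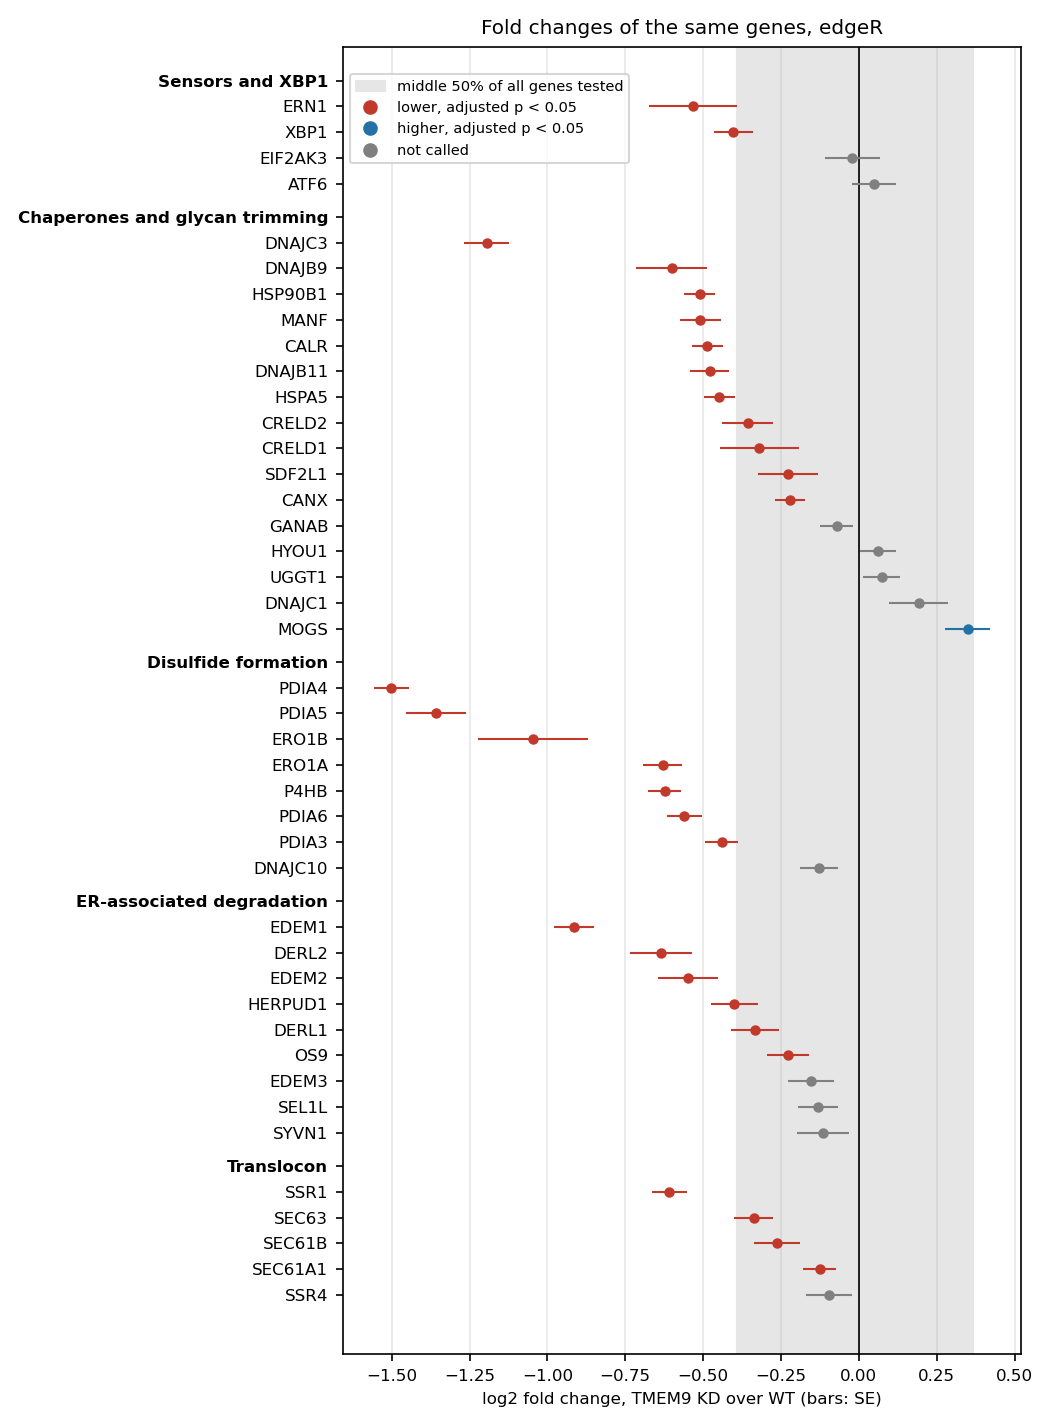
Log2 fold change of TMEM9 KD over WT for the same genes, with bars of 1 SE; colours mark the edgeR call and the grey band spans the middle 50% of all genes tested, from -0.39 to 0.37. Genes of disulfide bond formation reach -1.50, and MOGS, at 0.35, is the gene called higher.

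Of the 10 ERAD genes, 6 fell, 3 did not pass the test and DERL3 was not tested (median of the 9 tested -0.33). EDEM1, DERL2 and EDEM2 had the lowest values. EDEM1, a lectin that takes misfolded glycoproteins out of the folding cycle, had 136.1 and 118.3 CPM in TMEM9 KD, against 234.9 and 244.9 CPM in WT. Its log2 fold change was -0.92 (SE 0.06, adjusted p = 1.27e-23), while its nearest tested genes had a median of 0.17. EDEM2, a mannosidase that starts mannose trimming, had 27.4 and 30.5 CPM in TMEM9 KD, against 42.2 and 42.4 CPM in WT (log2 fold change -0.55, SE 0.10, adjusted p = 7.18e-07). EDEM3, the other mannosidase of the family, had a log2 fold change of -0.15 that did not pass the test (adjusted p = 0.0623). It was called lower without TMEM9 KD replicate 1 (-0.226, adjusted p = 0.00218).

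DERL2, a membrane protein of the retrotranslocation complex, had 26.4 and 25.4 CPM in TMEM9 KD, against 40.4 and 40 CPM in WT (log2 fold change -0.64, SE 0.10, adjusted p = 3.3e-08). HERPUD1, a membrane protein that assembles the complex and is itself induced by ER stress, had 72.1 and 63.8 CPM in TMEM9 KD, against 89 and 90.2 CPM in WT (log2 fold change -0.40, SE 0.08, adjusted p = 3.14e-06). DERL1, a relative of DERL2, fell by 0.33 on the log2 scale, while its 40 nearest tested genes had a median of -0.43. OS9, a lectin that hands substrates to the ligase, fell by 0.23, and this call ended without WT replicate 2 (adjusted p = 0.159). The core of the ubiquitin ligase differed by less. SEL1L, the scaffold, had 142.6 and 138.2 CPM in TMEM9 KD, against 154.1 and 153.2 CPM in WT (log2 fold change -0.13, adjusted p = 0.076). SYVN1, the ligase HRD1, had 49.4 and 54.8 CPM in TMEM9 KD, against 52.7 and 60.0 CPM in WT (log2 fold change -0.12, adjusted p = 0.242), with overlap between the groups. SEL1L was called lower without TMEM9 KD replicate 1 (0.0134) and SYVN1 without TMEM9 KD replicate 2 (0.0362). DERL3, a family member known from secretory cells, had 2 and 3 counts in TMEM9 KD, against 2 and 0 counts in WT, too few to compare.

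Of the 5 translocon genes, 4 fell and 1 did not pass the test (median log2 fold change -0.26). SSR1, a subunit of the translocon-associated complex that helps some signal peptides insert, had 303 and 279.8 CPM in TMEM9 KD, against 446.4 and 442.2 CPM in WT. The log2 fold change of SSR1 was -0.61 (SE 0.06, adjusted p = 6.85e-17). SSR4, another subunit of the same complex, had 79.3 and 86.3 CPM in TMEM9 KD, against 88.1 and 88.9 CPM in WT (log2 fold change -0.10, adjusted p = 0.266). SSR4 was called lower without TMEM9 KD replicate 2 (adjusted p = 0.0344). Whether SSR1 and SSR4 differ in their change was not tested. SEC63, a J-domain protein that brings BiP to the channel, had 163.9 and 149.99 CPM in TMEM9 KD, against 203 and 193.8 CPM in WT (log2 fold change -0.34, SE 0.06, adjusted p = 2.5e-06). SEC61B, a small subunit of the channel, had 75.4 and 80.7 CPM in TMEM9 KD, against 92.6 and 94.7 CPM in WT (log2 fold change -0.26, SE 0.07, adjusted p = 0.0013). SEC61A1, the channel itself, had 494.4 and 519.6 CPM in TMEM9 KD, against 536.5 and 569.8 CPM in WT (log2 fold change -0.13, SE 0.05, adjusted p = 0.0385). These last 2 calls were the least firm. That of SEC61B ended without WT replicate 2 (0.0611), and that of SEC61A1 without WT replicate 1 (0.138) or 2 (0.493), with the replicate block (0.0686), scaled by library size only (0.421) and with DESeq2 (0.0596). Without WT replicate 2, 2 of the 5 were called.

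Per kilobase of exon the order of the most abundant genes was the same in both groups. Length was taken over all annotated exons of a gene, which can exceed the transcript made, so ranks between genes are approximate. CALR was the highest, with 342 CPM per kb in TMEM9 KD and 479 CPM per kb in WT, followed by HSP90B1, HSPA5 and CANX. PDIA4 took rank 10 in TMEM9 KD and rank 5 in WT, with 64.0 CPM per kb in TMEM9 KD and 181.4 CPM per kb in WT. GANAB took rank 5 in TMEM9 KD and rank 8 in WT, at 132.8 and 139.5 CPM per kb. HSPA5 and CANX, at 239 and 237 CPM per kb in TMEM9 KD, were neighbours that lay within the spread of their libraries there. Of the 42 genes, 12 kept their rank.

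**Figure D3:**
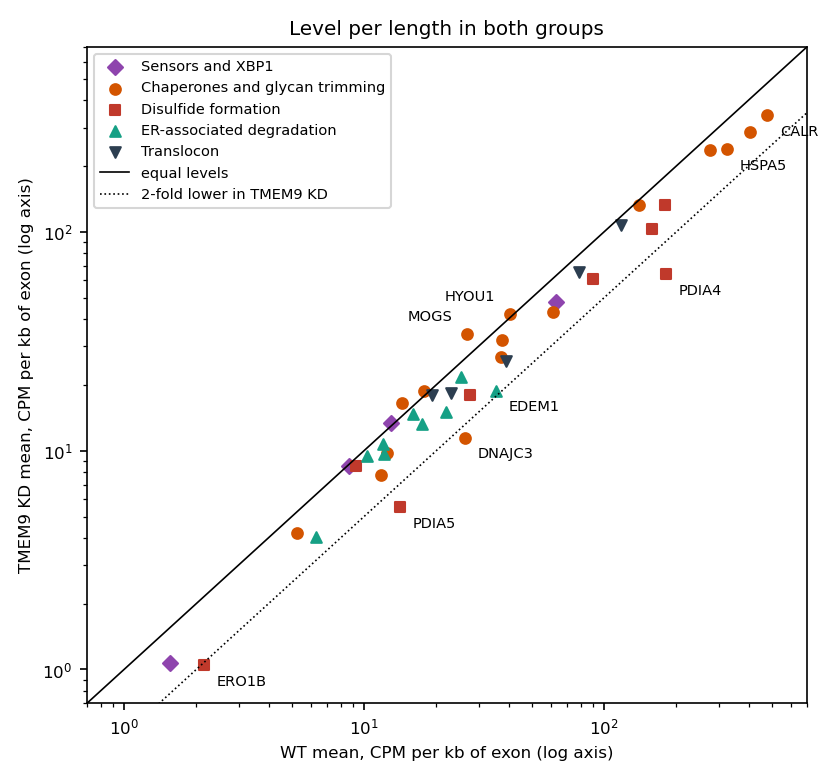
Mean level per kilobase of exon in TMEM9 KD (vertical, log axis) against WT (horizontal, log axis) for the 42 genes, by function; the solid line marks equal levels and the dotted line levels 2-fold lower in TMEM9 KD. PDIA4, PDIA5, DNAJC3 and ERO1B lie at or below the dotted line, and CALR is the highest gene on both axes.

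The promoters of these genes are known for the ER stress response element (ERSE), which ATF6 binds together with NF-Y. The 250 bases upstream of each transcription start were read from the RefSeq promoter table (build GRCh38.p14), in which 38 of the 43 genes had an entry. The ERSE was searched on both strands as CCAAT and CCACG with 9 bases of any kind between them. It was present in 8 of these 38 genes (21.1%) and in 0.0916% of all 27305 genes in the table. Their upstream matches are printed to show how the fixed letters recur with differing spacers, 5′ to 3′ on the strand of the gene, with the fixed letters in capitals and 5 bases on either side. In the reverse orientation the capitals read CGTGG and ATTGG, and HSP90B1 holds a match in each orientation.
CALR: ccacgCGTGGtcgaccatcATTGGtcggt
CANX: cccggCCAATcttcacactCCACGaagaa
CRELD2: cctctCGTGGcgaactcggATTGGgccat
ERO1B: gcccgCGTGGtcccgcctcATTGGccgcc
HSP90B1: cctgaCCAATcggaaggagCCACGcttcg
HSP90B1: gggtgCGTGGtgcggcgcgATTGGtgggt
HSPA5: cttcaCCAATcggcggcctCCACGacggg
PDIA6: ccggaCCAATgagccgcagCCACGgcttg
XBP1: gctggCCAATcgcggagggCCACGaccgt

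All 8 genes with the ERSE were among those that fell, with log2 fold changes between -1.05 (ERO1B) and -0.22 (CANX) and a median of -0.47. Of the other 30 genes that had a promoter entry and were tested, 20 fell and 0 rose, with a median of -0.33. MOGS, the gene called higher, had no promoter entry and was not among them. Outside the 43 genes, 8 tested genes held the same letters upstream, of which 3 fell and 0 rose, with a median of -0.10. SERP1, a stabiliser of the translocon, was 1 of these 3, at -0.24. FICD, the enzyme that adds AMP to BiP, was among the other 5, with 0.21 (adjusted p = 0.292). The difference between genes with and without the element was not tested.

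Other elements were less frequent. The ERSE-II, searched on both strands as ATTGG and CCACG with 1 base between them, was found upstream of HERPUD1, SDF2L1 and HYOU1, 7.89% of the 38 genes, against 0.0659% of all genes in the table. The element TGACGTGG, known as UPRE and bound by XBP1, was searched on both strands and found upstream of HYOU1, DNAJC10 and SSR4, against 0.78% of all genes. None of these 3 genes was called. In HYOU1 the UPRE overlaps the ERSE-II match farther from the start. The ERSE-II matches are printed with the same marking, and show the shorter spacer.
HERPUD1: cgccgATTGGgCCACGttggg
HYOU1: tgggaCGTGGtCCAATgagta
HYOU1: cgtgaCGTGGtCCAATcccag
SDF2L1: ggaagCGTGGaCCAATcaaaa

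The 250 upstream bases of HSPA5, HSP90B1 and HYOU1 are printed with the fixed letters of every match in capitals. They set genes that fell beside HYOU1, which was not called. HYOU1 carries 3 matches, of the ERSE-II and the UPRE and none of the ERSE. Only exact letters were searched. Copies that differ in a letter, as in HSPA5, stay unmarked, so the matches do not count every element. Coordinates are of GRCh38.p14 from RefSeq.
HSPA5 (chr9:125241344-125241593, minus strand): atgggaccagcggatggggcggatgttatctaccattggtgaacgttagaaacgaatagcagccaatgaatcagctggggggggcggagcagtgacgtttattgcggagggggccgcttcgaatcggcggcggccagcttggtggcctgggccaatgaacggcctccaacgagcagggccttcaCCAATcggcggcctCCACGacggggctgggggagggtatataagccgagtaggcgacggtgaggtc
HSP90B1 (chr12:103930160-103930409, plus strand): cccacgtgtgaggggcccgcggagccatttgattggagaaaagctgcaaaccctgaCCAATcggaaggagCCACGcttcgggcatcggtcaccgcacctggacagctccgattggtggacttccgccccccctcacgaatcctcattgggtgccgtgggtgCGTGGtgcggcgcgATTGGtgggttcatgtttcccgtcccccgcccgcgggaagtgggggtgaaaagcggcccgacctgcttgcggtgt
HYOU1 (chr11:119057206-119057455, minus strand): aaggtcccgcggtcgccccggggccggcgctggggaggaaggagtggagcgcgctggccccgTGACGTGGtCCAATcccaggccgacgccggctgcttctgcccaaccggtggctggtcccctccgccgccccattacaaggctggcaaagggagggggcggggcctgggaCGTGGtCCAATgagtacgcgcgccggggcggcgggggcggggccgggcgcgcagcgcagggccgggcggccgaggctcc

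PDIA4, PDIA5, DNAJC3 and EDEM1, the 4 genes apart from ERO1B that fell most, held no exact match in this window. These letters are a description of the sequence and no measure of binding.

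**Figure D4:**
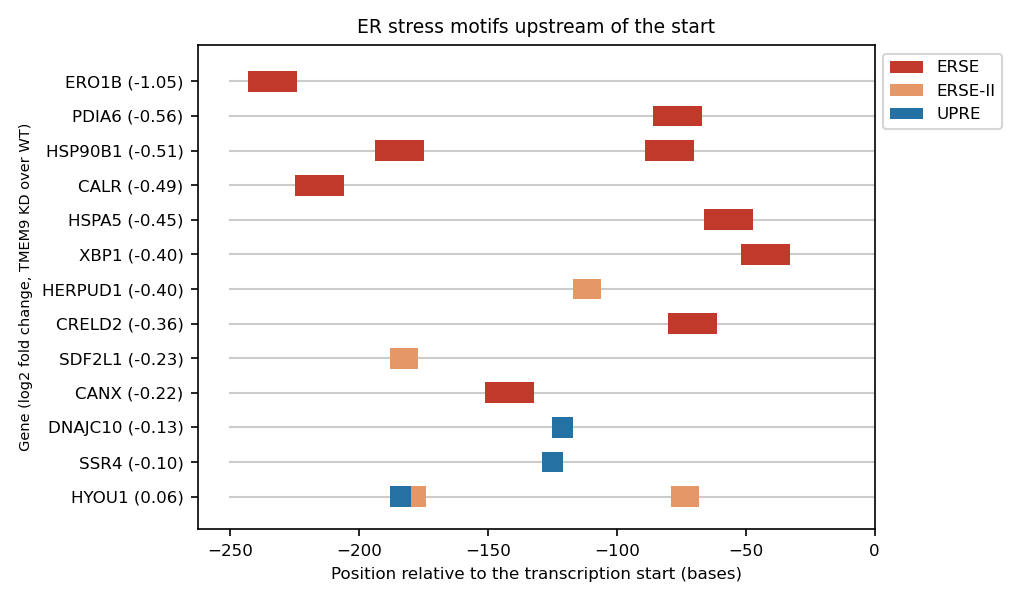
Position of the ERSE, ERSE-II and UPRE letters within 250 bases upstream of the transcription start, for the 13 genes with a match, ordered by log2 fold change of TMEM9 KD over WT; for CANX the nearer of 2 annotated starts is drawn. The genes with an ERSE run from -1.05 to -0.22, and HYOU1, with 3 matches of the ERSE-II and UPRE, stands at 0.06.

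Other genes of the secretory pathway, taken from 7 lists of 120 genes outside the 43, were set beside them. Of 117 tested, 59 fell and 20 rose (median log2 fold change -0.18), where 29.0% of all genes tested fell and 28.7% rose. The same shares of all genes apply to each list below. How many of the 117 were called higher depended on the libraries used. Genes of protein glycosylation, ER export and collagen folding had many members lower and few higher. Of 12 oligosaccharyltransferase genes, 9 fell and 0 rose (median -0.29), among them the catalytic subunit STT3A by 0.81 and RPN1, OSTC and MAGT1 by 0.49, 0.48 and 0.38 on the log2 scale. Of 20 genes of ER export and retrieval, 14 fell and 2 rose (median -0.21), with 8 falling without WT replicate 2, 9 falling when scaled by library size only, and 1 rising without WT replicate 1 or with DESeq2. KDELR1, the receptor that returns escaped chaperones such as BiP, had 186.8 and 188.7 CPM in TMEM9 KD, against 292 and 294.1 CPM in WT. TMED10, a cargo receptor, fell by 0.65 and SAR1A and SEC24D, of the COPII coat, each by 0.49 on the log2 scale.

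Of 12 genes of collagen folding, 9 fell and 0 rose (median -0.48). P4HA1, the alpha subunit that pairs with P4HB in prolyl hydroxylation, had 71.0 and 61.7 CPM in TMEM9 KD, against 191.9 and 195.8 CPM in WT (log2 fold change -1.55, adjusted p = 9.9e-37). PLOD2, P4HA2 and PLOD1, hydroxylases of lysine or proline, fell by 0.92, 0.89 and 0.78 on the log2 scale. Of 19 further genes of translocation, 10 fell and 2 rose (median -0.24), with 0 rising without WT replicate 1 or 2. The lowest was SRPRA, the receptor of the signal recognition particle, with 139 and 148.7 CPM in TMEM9 KD, against 284.2 and 284.1 CPM in WT. TRAM1, SEC61G and SSR2 fell by 0.66, 0.57 and 0.44 on the log2 scale.

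Other oxidoreductases and further ERAD genes moved in both directions. Of 13 oxidoreductases tested, 6 fell and 3 rose (median -0.14). The sulfhydryl oxidase gene QSOX1 rose by 0.37 and the thioredoxin-like TMX4 by 0.33 on the log2 scale, and SELENOF and TXNDC11 each fell by 0.32. Of 23 further ERAD genes, 7 fell and 6 rose (median 0.05), with 3 rising without WT replicate 2. These shares are near the 29.0% and 28.7% of all genes tested. FAM8A1, a cofactor of HRD1, fell by 0.97, UBXN4 by 0.83 and UBAC2 by 0.80, while UBE2J2, a ubiquitin-conjugating enzyme, rose by 0.67 on the log2 scale. UBAC2 lies on chromosome 13, where the median of all tested genes was -0.62.

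Of 18 signalling genes around the sensors, 4 fell and 7 rose (median 0.07), beside 29.0% and 28.7% of all genes tested, and no difference from other genes was tested. Those that rose most lie downstream of PERK and ATF4. PPP1R15A, the phosphatase subunit that reverses PERK signalling, had 91.4 and 92.8 CPM in TMEM9 KD, against 31.8 and 34.2 CPM in WT (log2 fold change 1.48, adjusted p = 5.12e-30). DDIT3, which encodes CHOP, had 8.49 and 10.03 CPM in TMEM9 KD, against 4.15 and 2.89 CPM in WT (log2 fold change 1.41, adjusted p = 5.76e-09). CHAC1, a glutathione-degrading enzyme, had 5.50 and 4.76 CPM in TMEM9 KD, against 2.14 and 1.17 CPM in WT, and ATF3 had 8.37 and 6.76 CPM in TMEM9 KD, against 4.21 and 3.39 CPM in WT (log2 fold changes 1.65 and 1.00). In these 4 genes both TMEM9 KD libraries lay above both WT libraries. Counts in WT were few for DDIT3 (62 and 52), ATF3 (63 and 61) and CHAC1 (32 and 21). With the filter of a mean of at least 5 CPM, 6 signalling genes rose. ATF4 itself averaged 329.1 CPM in TMEM9 KD and 337.6 CPM in WT (log2 fold change -0.04, adjusted p = 0.602), and TRIB3, another ATF4 target, had -0.01 (adjusted p = 0.918). Among partners of ATF6, its relative ATF6B fell by 0.47 and the protease gene MBTPS2 by 0.31, while MBTPS1, the other protease, rose by 0.17 on the log2 scale. The other called genes of the list were MAP3K5 and CREB3L1, which fell by 0.67 and 0.23, and WFS1 and EIF2S1, which rose by 0.68 and 0.33.

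**Figure D5:**
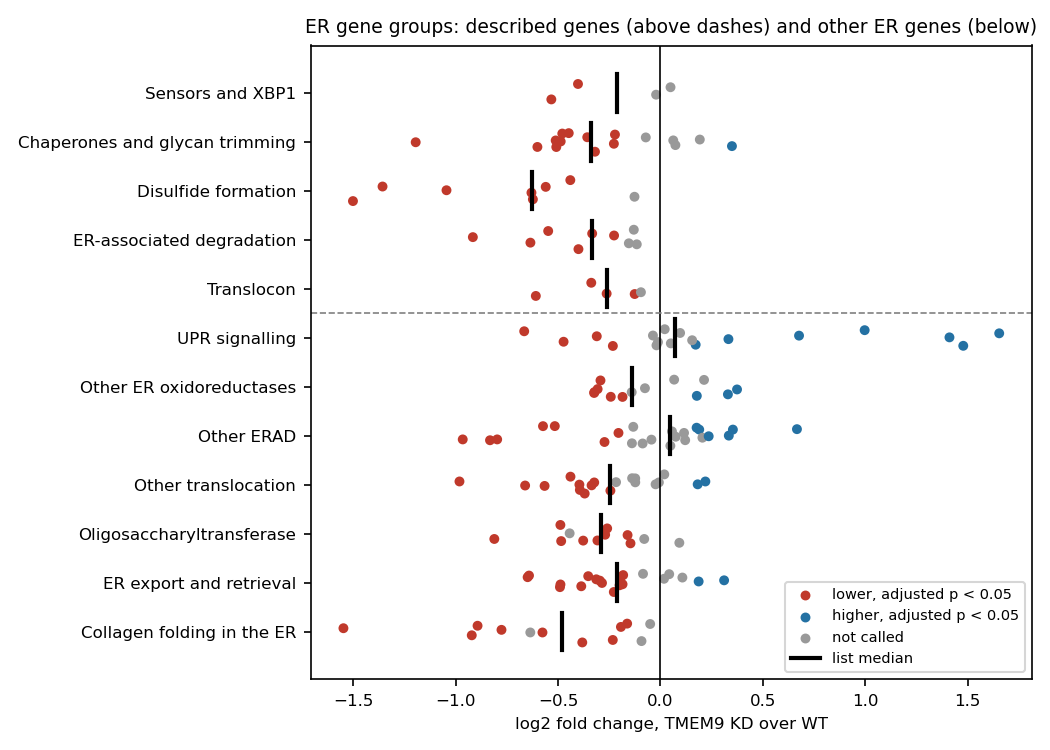
Log2 fold change of TMEM9 KD over WT for each tested gene of the 5 functions described (above the dashed line) and of the 7 other lists (below it); colours mark the edgeR call and black bars the medians. Medians run from -0.63 in disulfide bond formation to 0.07 in the signalling genes, where CHAC1, PPP1R15A and DDIT3 exceed 1.4.

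Markers of other cells were measured beside these changes. Plasma cells, which hold much ER, were represented by 7 markers, of which 5, JCHAIN and MZB1 among them, were under 1 CPM in every library. The 7 markers summed to 74.1 and 76.6 CPM in TMEM9 KD, against 346.8 and 346.1 CPM in WT. Most of each sum was SDC1, with 60.7 and 62.4 CPM in TMEM9 KD, against 303.0 and 300.1 CPM in WT. Both markers tested, SDC1 and PRDM1, fell. The 10 leukocyte markers summed to 6.72 and 8.19 CPM in TMEM9 KD, against 13.8 and 16.02 CPM in WT. Of the 3 leukocyte markers tested, CD14 and CORO1A fell and PTPRC rose. The 10 fibroblast markers summed to 3382 and 3451 CPM in TMEM9 KD, against 3418 and 3466 CPM in WT. Within that nearly equal fibroblast sum, 4 of the 9 markers tested fell and 5 rose. COL3A1 had 27.7 and 34.5 CPM in TMEM9 KD, against 947.2 and 966.1 CPM in WT, and COL1A1 had 1300 and 1473 CPM in TMEM9 KD, against 815 and 832 CPM in WT. Of the 12 basal and myoepithelial markers, 9 of the 11 tested fell and 1 rose, and their sum was 913 and 926 CPM in TMEM9 KD, against 1313 and 1341 CPM in WT. Of the 6 endothelial markers in the table, 5 were under 1 CPM in every library. Mitochondrially encoded transcripts took 3.18% and 2.83% of the counts in TMEM9 KD, against 3.98% in both WT libraries. The part of the plasma cell, leukocyte, fibroblast and basal markers and of the mitochondrial share in the changes of ER genes was not tested.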

How the data were processed

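RNA-seq counts of 4 libraries (2 TMEM9 KD, 2 WT) were analysed as deposited. The authors deposited raw counts per Ensembl gene. Per the labels' protocols, library preparation started from 1 ug of RNA. CASAVA, Bowtie 0.12.2, hg19 and mm8 are listed, without roles, per the submitters' processing notes. The sources used here name no counter, annotation or strand setting. Symbols came from a gene name table, then from GENCODE 29, which also gave exon lengths and gene order. GENCODE 29 is of build GRCh38, so it was not used for coordinates; those printed are of RefSeq promoters only.

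Groups were compared with edgeR 4.0.16 (quasi-likelihood F test, R 4.3.3), using TMM scaling, filterByExpr (minimum count 10, total 15) and group as the term, with 2 residual degrees of freedom. Benjamini-Hochberg adjustment ran over 14923 genes (threshold 0.05). Each SE is the size of the log2 fold change divided by the root of F. The fit was tested on simulated data. Libraries of a group differed by more than sampling noise (chi-square over degrees of freedom 4.82 in TMEM9 KD and 2.04 in WT) and were kept as replicates.

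The genes, lists and subgroups were chosen with earlier results of these data known. Values per library are given for the 4 largest called changes of each subgroup, HSPA5, HSP90B1, the sensors and genes called higher, and for others chosen after their values were seen; of each other list, up to 4 genes are named by largest called change, except that every called signalling gene is named, with ATF4 and TRIB3 chosen after their values were seen. The comparison with chromosomal neighbours and the promoter search were chosen after seeing the data. Alternatives were other scalings and filters, DESeq2 1.42.0, limma voom (limma 3.58.1), a test against 1.5-fold, a replicate block, leaving out the 20 most abundant genes, and leaving out each library.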

Additional observations from a re-analysis of the deposited data

How the results depend on the processing

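Of the 30 genes called lower, 24 were called lower under every alternative except the test against 1.5-fold. Tested against 1.5-fold, 5 of the 42 genes were lower and 0 higher (sensors 0, chaperones 1, disulfide bond formation 3, ERAD 1 and translocon 0 lower). Of the 117 other ER genes tested, 9 were lower and 4 higher. Over all genes tested 11.3% were lower and 7.44% higher, so neither count of lower genes stands above the share of all genes by much. Scaled by library size only, 27 of the 30 stayed lower, 4 genes were higher (all 4 among chaperones) and the median was -0.305, while the median of all genes was 0.0813. Without single libraries, 25 to 34 genes were lower and 1 to 2 higher (chaperones 1 to 2 higher), the median ran from -0.396 to -0.387, sensors lower numbered 1 to 2, translocon genes lower 2 to 5, and other ER genes higher 13 to 21, with 13 without WT replicate 1 and 13 without WT replicate 2. Direction turned, in genes not called in the fit of all libraries, for EIF2AK3 (0.053) and GANAB (0.00255) scaled by library size only, for ATF6 without TMEM9 KD replicate 1 (-0.00552; 0.0995 without replicate 2), and for EIF2AK3 (0.0353; -0.0808 without replicate 1) and HYOU1 (-0.0267; 0.145 without replicate 1) without TMEM9 KD replicate 2. HYOU1 was called higher at 0.145. The cause of these changes was not tested. The labels do not say whether same-numbered libraries were prepared together. Their deviations from the group means had r = 0.000474 over genes, a single contrast that cannot decide this. With the replicate block 29 of the 30 stayed lower, all but SEC61A1 (-0.13, adjusted p = 0.0686). With 2 libraries a group, values of genes under about 20 CPM, such as ERN1, CRELD1, ERO1B, DDIT3, ATF3 and CHAC1, rest on few counts.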

Other observations

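Neighbouring genes on a chromosome of some ER genes were also lower in TMEM9 KD. For each of the 42 genes, the median log2 fold change of up to 20 tested genes on either side was taken. These medians ran from -0.832 around DNAJC3 to 0.297 around P4HB, and lay between -0.25 and 0.25 for 35 of the 42. Of the 42, 35 were lower than their neighbours' median, with a median difference of -0.35, and this held for 28 of the 30 called lower. The exceptions were DERL1, whose neighbours had -0.425, and SEC61A1, whose neighbours had -0.3. After this subtraction the lowest differences were -1.25 for PDIA5, -1.14 for ERO1B and -1.08 for EDEM1, with PDIA4 at -0.772 and DNAJC3 at -0.364. P4HB, SSR1 and MANF followed at -0.92, -0.825 and -0.78, with neighbour medians of 0.297, 0.217 and 0.272.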
